A study of Rattus norvegicus with 20 samples.

Results

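Solute carriers are the membrane proteins that move sugars, amino acids, fatty acids, ions, metals, nucleotides and vitamins across cell and organelle membranes, and gene symbols number them by family (Slc, then the family number). They were studied here in visceral white adipose tissue of rats fed the control amount of food or 5% to 30% less. The array carried 226 genes by this naming in 48 families, and 126 of them in 41 families had a probe set bright enough to be followed, out of 7113 genes that passed the same filter. The members were selected on signal: the brightest probe set of each gene had to reach the 40th percentile of mean log2 signal over all chips, a signal of 22.8. The other 100 genes lay below it and were not analysed here. Slc26a3 (mean signal 22.86), Slc4a1 (22.96) and Slc45a4 (23.12) lay just inside this limit, and Slc18a2 (22.33), Slc29a2 (21.71) and Slc66a1 (21.15) just outside. The glucose transporter Slc2a4 and the fatty acid transporter Slc27a1 were left out by the selection rule. Slc4a1ap and Slc7a6os carry the name of a neighbouring or partner gene and are not transporters themselves. Transport classes below follow the family number. Slc4a1ap is thus counted with the inorganic ion transporters, Slc7a6os with the amino acid transporters and the vitamin transporter Slc5a6 with the sugar transporters.

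Male Wistar rats, an outbred strain, were bought at 5 weeks of age. From 6 weeks of age they received either the control amount of food or 5%, 10%, 20% or 30% less, for 1 week or 1 month. All groups shared the same strain, sex, diet and a fast of 16 h before the tissue was taken. RNA of 5 rats was pooled in each of the 10 groups and measured on 2 chips of the Affymetrix Rat Expression Set 230 A array. The 2 chips of a pool are technical repeats, so the pool was the replicate and each group held 1 pool. Differences among rats of one group were therefore not measured, and p-values rest on the spread of pools around the fitted model.

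Duplicate chips correlated at 0.971 to 0.982, and the median technical SD of a pool mean was 0.15 log2 for the members against 0.13 over all tested probe sets. Adipocyte markers (8 tested) averaged 9.56 on the log2 scale in the 1 week control and 9.90 to 10.0 in its restricted pools, and 9.72 in the 1 month control and 10.0 to 10.3 in its restricted pools. Cidea, the 1 tested marker of brown adipocytes, was at 9.502 and 9.86 in the controls and 9.86 to 10.8 in the restricted pools. None of the 6 kidney tubule markers was bright enough to test. Markers of other cells set pools apart. The 4 tested genes of the exocrine pancreas averaged 12.4 on the log2 scale in the 1 week control and 7.36 in the 1 week 30% pool, against 3.86 to 4.73 in all other pools. The 11 tested lymphocyte markers averaged 7.82 in the 1 week control and, with rising restriction, 7.01, 6.03, 6.33 and 3.96. The 1 month control averaged 7.80, followed by 7.71, 4.16, 4.34 and 6.82 from the mildest to the strongest restriction. Macrophage markers (9 tested) averaged 8.25 in the 1 week control and 7.70 to 8.13 in its restricted pools. At 1 month they averaged 8.81 in the control and 7.79 to 8.16 in the restricted pools. Endothelial markers (7 tested) averaged 7.01 and 7.10 to 7.21 at 1 week, and 7.03 and 6.73 to 6.96 at 1 month. In bulk tissue, fewer cells of a type and less RNA per cell cannot be told apart, and this holds for every value below.

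White fat takes up glucose, amino acids and fatty acids after a meal and releases fatty acids and glycerol in a fast. Plasma membrane carriers of several families bring substrates in. The carriers of family 25 in the inner mitochondrial membrane then exchange them between cytosol and matrix, among them acylcarnitine for fat oxidation, dicarboxylates and oxoglutarate for shuttles of reducing power, and ADP, ATP and phosphate for energy supply. Family 35 carriers bring nucleotide sugars into the Golgi apparatus and endoplasmic reticulum for glycosylation.

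The members whose promoters are shown are the 5 of family 25, the mitochondrial carrier family, that passed a test of restriction described below, because 19 of the 23 members of this family had a rising slope. One of them, Slc25a17, is placed in peroxisomes. RefSeq windows of the assembly GRCr8 matched 106 of the 126 members by symbol, and the 250 bases before the start of each gene are printed 5′ to 3′ on the strand of the gene. Capitals mark matches to GGGCGG (the GC box) and CCAAT (the CCAAT box) on either strand, so CCGCCC and ATTGG are capitals too. Slc25a10 lies at chr10:106264146-106264395 on the plus strand, Slc25a11 at chr10:55859061-55859310 on the minus strand, Slc25a17 at chr7:114767164-114767413 on the minus strand, Slc25a20 at chr8:118243323-118243572 on the plus strand and Slc25a42 at chr16:19247724-19247973 on the plus strand.
Slc25a10: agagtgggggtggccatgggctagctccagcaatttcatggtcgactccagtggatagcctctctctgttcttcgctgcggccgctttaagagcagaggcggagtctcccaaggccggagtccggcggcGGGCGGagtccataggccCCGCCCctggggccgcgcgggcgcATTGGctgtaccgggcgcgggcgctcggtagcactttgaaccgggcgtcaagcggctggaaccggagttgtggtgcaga
Slc25a11: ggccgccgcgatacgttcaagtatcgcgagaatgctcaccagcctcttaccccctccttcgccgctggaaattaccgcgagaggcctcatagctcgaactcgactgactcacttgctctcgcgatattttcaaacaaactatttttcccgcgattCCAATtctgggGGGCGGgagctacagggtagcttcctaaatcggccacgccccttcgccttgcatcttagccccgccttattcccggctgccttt
Slc25a17: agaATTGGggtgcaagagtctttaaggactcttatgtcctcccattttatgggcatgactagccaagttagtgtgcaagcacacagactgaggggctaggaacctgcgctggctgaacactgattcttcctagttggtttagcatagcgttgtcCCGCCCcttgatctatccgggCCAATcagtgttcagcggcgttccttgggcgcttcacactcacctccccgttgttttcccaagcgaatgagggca
Slc25a20: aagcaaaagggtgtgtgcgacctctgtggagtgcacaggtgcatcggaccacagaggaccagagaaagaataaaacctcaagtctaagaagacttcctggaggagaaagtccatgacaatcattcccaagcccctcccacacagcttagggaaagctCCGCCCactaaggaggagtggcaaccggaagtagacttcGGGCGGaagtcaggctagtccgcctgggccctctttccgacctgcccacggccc
Slc25a42: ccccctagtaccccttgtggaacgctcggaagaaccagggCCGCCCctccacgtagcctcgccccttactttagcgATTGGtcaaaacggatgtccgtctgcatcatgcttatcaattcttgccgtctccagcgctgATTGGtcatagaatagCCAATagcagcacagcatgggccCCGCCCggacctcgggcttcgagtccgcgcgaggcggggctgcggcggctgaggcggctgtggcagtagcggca

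The GC box stood in 12 and the CCAAT box in 13 of the 21 windows of this family (57.1% and 61.9%). Of the 106 member windows, 61.3% held the GC box and 34% the CCAAT box, and of all 33469 RefSeq windows of this length 30.5% and 34%. Members were richer in G and C (median 63%) than all windows (51.2%). The single nuclear receptor site AGGTCA was in 1 of these 21 windows, in 13.2% of member windows and in 14.1% of all windows. The E-box CACGTG was in 1 of 21, in 11.3% and in 5.59%, and the cyclic AMP response element TGACGTCA in 1 of 21, in 0.943% and in 1.59%. These are counts of letters and not of bound sites. A CCAAT box can share bases with a GC box where ATTGG runs into GGGCGG, and the 5 printed windows held 1 or 2 GC boxes each and 0 to 3 CCAAT boxes.

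The first comparison asked which transporters changed in step with how much food was withheld, over 1 week and 1 month together, as a slope of log2 signal per 10% less food. Of the 126 members, 8 rose and 1 fell. The rising members were the plasma membrane carriers of glutamate (Slc1a3) and of amino acids (Slc7a6), the mitochondrial carriers of dicarboxylates (Slc25a10), acylcarnitines (Slc25a20) and coenzyme A (Slc25a42), a sodium-bicarbonate cotransporter (Slc4a4), a sodium/calcium exchanger (Slc24a3) and a monocarboxylate transporter (Slc16a7). The falling member was Slc44a2, a choline transporter-like protein. The 8 rising members were 6.35% of the 126, beside 5.71% of all 9520 probe sets tested, and the 1 falling member was 0.794%, beside 3.69%. The share that rose was thus near the background, and the median slope was 0.0043 over the members and −0.011 over all probe sets. At an unadjusted p under 0.05, 29 members (23%) had a rising and 19 (15.1%) a falling slope, beside 14.3% and 15.9% of all probe sets. In the paragraphs that follow, a value in parentheses after a slope or difference is its adjusted p by limma.

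**Figure D1:**
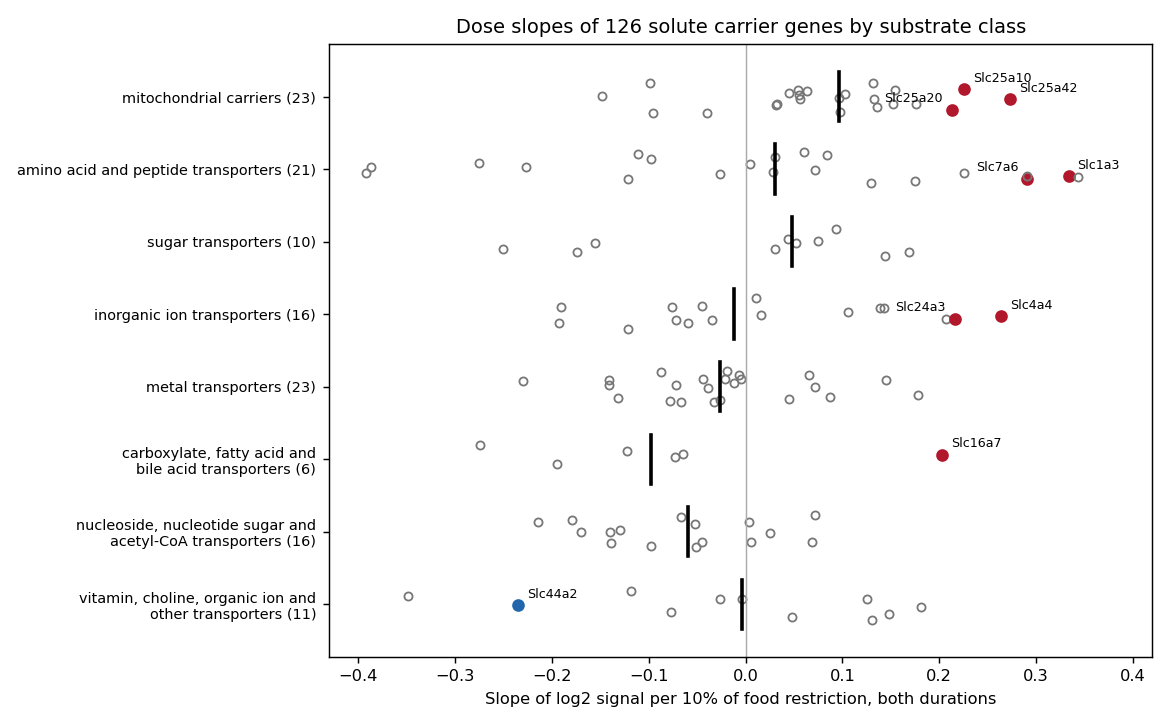
Slope of log2 signal per 10% of food restriction (both durations, n = 10 pools) for each of the 126 members, grouped by transport class with the number of members in brackets. Filled points passed an adjusted p of 0.05 by limma (8 rising in red, 1 falling in blue), open points did not, and the black bar is the class median, which was 0.096 for the mitochondrial carriers (family 25, with the peroxisomal Slc25a17) and −0.097 for the carboxylate class.

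Slc1a3, a sodium-coupled glutamate and aspartate transporter, had the steepest of the called slopes. Its signal (MAS5 units, 2 chips averaged on the log scale) was 339.9 in the control pool of 1 week and 537.7, 586.2, 703.0 and 835.6 at 5%, 10%, 20% and 30%. At 1 month it was 406.5 in the control pool and 475.8, 693.7, 706.3 and 764.0 in the restricted pools. Each step down in food was matched by a higher signal at both durations, and all restricted pools stood above both controls. The slope was 0.33 ± 0.054 log2 per 10% (standard error over n = 10 pools; adjusted p = 0.00760, limma), and the 30% pools reached 2.46-fold and 1.88-fold of their controls. A further probe set of the gene gave the same slope of 0.33 (adjusted p = 0.0162 by limma), while the remaining one gave 0.0073 (adjusted p = 0.963).

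Slc7a6, the y+LAT2 light subunit that exchanges cationic for neutral amino acids, had signals of 87.4, 114.5, 104.7, 134.5 and 169.8 from control to 30% at 1 week. At 1 month they were 114.8, 124.0, 154.9, 170.2 and 213.2. The pools rose almost in step with the level, with the 5% and 10% pools of 1 week in the opposite order. The slope was 0.29 ± 0.035 (n = 10 pools, adjusted p = 0.00222 by limma), with 0.29 at each duration taken alone.

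Among the mitochondrial carriers, Slc25a10, the dicarboxylate carrier that exchanges malate or succinate for phosphate, had signals of 523.1, 649.0, 642.5, 740.5 and 905.1 at 1 week and of 440.2, 541.4, 634.3, 678.6 and 722.7 at 1 month. All 8 restricted pools stood above the control of their duration, and the slope was 0.23 ± 0.034 (n = 10 pools, adjusted p = 0.00572 by limma). Slc25a20, the carnitine-acylcarnitine carrier through which long-chain acyl groups enter the matrix, went from 114.2 to 139.5, 169.6, 175.2 and 177.6 at 1 week and from 120.1 to 163.2, 204.0, 198.7 and 215.6 at 1 month. Most of its rise lay between control and 10%, with little difference among the 10%, 20% and 30% pools. The slope was 0.21 ± 0.051 (n = 10 pools, adjusted p = 0.0279 by limma).

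Slc25a42, a mitochondrial carrier of coenzyme A, had signals of 52.6, 70.8, 86.2, 105.3 and 108.6 at 1 week. At 1 month they were 39.3, 69.5, 80.7, 59.6 and 81.7, so that the 20% pool lay below the 5% pool. The slope was 0.27 ± 0.076 (n = 10 pools, adjusted p = 0.0472 by limma), and the 30% pools were 2.06-fold and 2.08-fold above their controls.

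Slc4a4, the sodium-bicarbonate cotransporter NBCe1, had signals of 71.0, 130.2, 122.2, 132.7 and 143.7 at 1 week, a step between control and 5% with little further rise. At 1 month they were 78.8, 68.9, 117.2, 114.6 and 132.0, so the 5% pool stood below the control. The slope was 0.26 ± 0.069 (n = 10 pools, adjusted p = 0.0371 by limma), and a further probe set gave 0.24 (adjusted p = 0.0498). Slc24a3, a potassium-dependent sodium/calcium exchanger, had signals of 249.7, 225.1, 244.3, 391.6 and 348.6 at 1 week and of 241.3, 310.0, 348.7, 323.4 and 402.9 at 1 month. At 1 week only the 20% and 30% pools exceeded the control. The slope was 0.22 ± 0.050 (n = 10 pools, adjusted p = 0.0239 by limma), while the other probe set of the gene gave 0.011 (adjusted p = 0.898). Slc16a7, the monocarboxylate transporter MCT2, went from 45.3 to 52.3, 57.1, 64.4 and 76.0 at 1 week and from 66.2 to 71.7, 92.5, 76.1 and 103.3 at 1 month. The slope was 0.20 ± 0.045 (n = 10 pools, adjusted p = 0.0211 by limma). It rested more on the first chips: from 1 chip per pool it was 0.315 without replicate 2 and 0.092 without replicate 1.

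Slc44a2 fell from 198.5 to 149.4, 150.0, 127.9 and 114.8 at 1 week. At 1 month the 5% pool (190.9) was close to the control (185.4), and the 10%, 20% and 30% pools stood at 98.7, 111.6 and 118.1. The slope was −0.23 ± 0.067 (n = 10 pools, adjusted p = 0.0496 by limma), and it was −0.11 (adjusted p = 0.391) with the mean level of the lymphocyte markers as a covariate. That level was itself below the control of its duration in every restricted pool. Fits with this covariate, here and below, therefore cannot separate it from restriction.

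**Figure D2:**
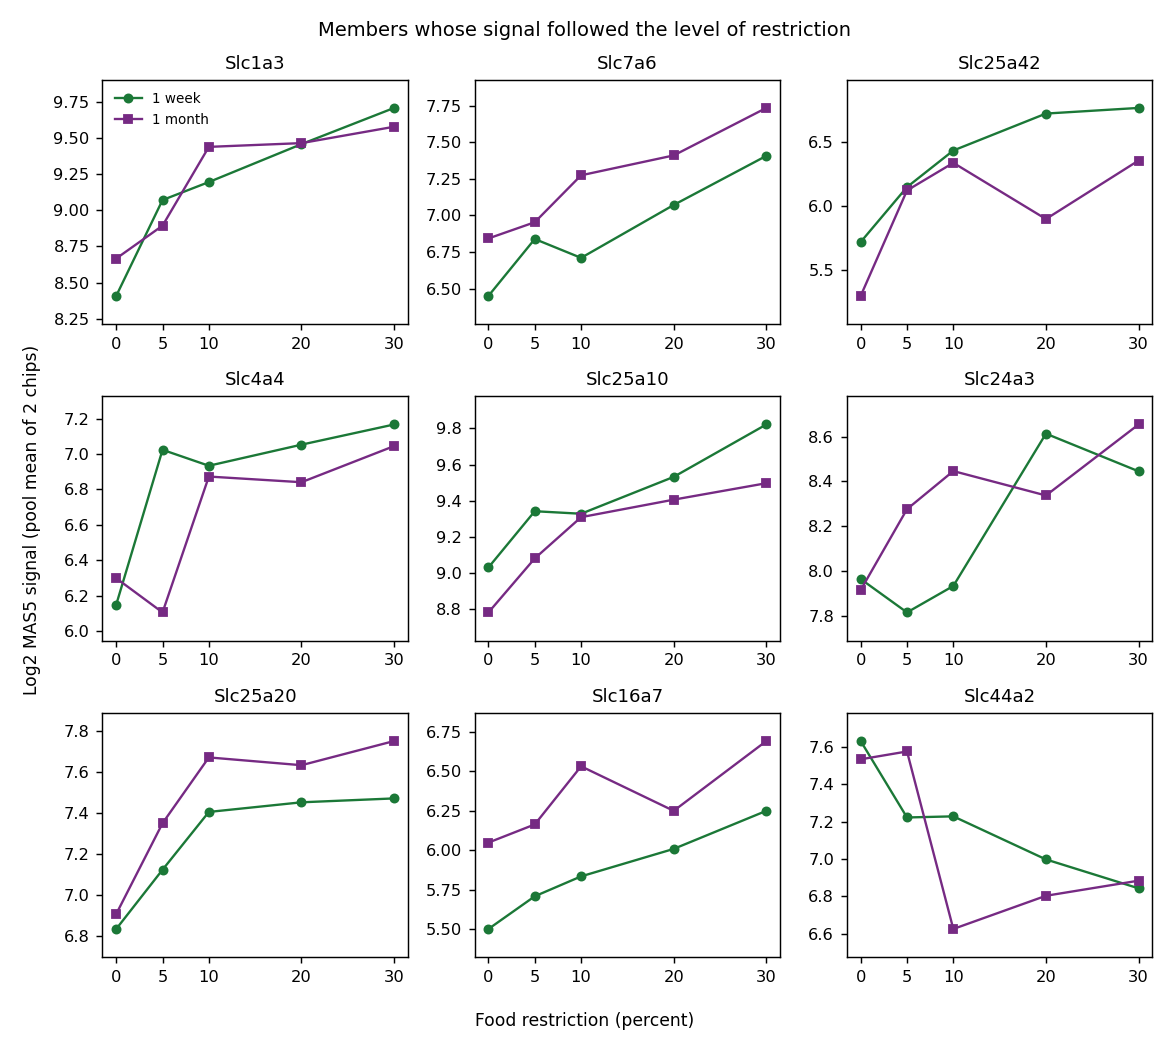
Log2 MAS5 signal (mean of 2 chips) against food restriction in percent for the 9 members whose slope passed the test, with 1 pool per point and lines for 1 week (circles) and 1 month (squares); each panel has its own vertical range. Slc25a10 is above its control in 8 of 8 restricted pools and Slc44a2 is below it in 7 of 8.

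Leaving out 1 pool at a time moved the count of rising members. It was 3 without the 1 week control, the 30% pool of 1 week or the control pool of 1 month, 5 without either 20% pool, 16 without the 10% pool of 1 month and 18 without the 30% pool of 1 month. The share of all probe sets that rose moved as well, to between 0.882% and 3.28% in the fits with 3 or 5 members, and to 9.59% and 8.27% in the last 2. The count of falling members was 13 without the 10% pool of 1 month, 11 without its 30% pool and 0 without any of 7 others, and 10.6% and 8.97% of all probe sets fell in the first 2 of these fits. Slc7a6, Slc25a10 and Slc1a3 passed the threshold whichever pool was left out, with highest adjusted p-values of 0.0278, 0.0459 and 0.0480 by limma. The same 3 passed with the lymphocyte level as a covariate (adjusted p = 0.00957, 0.0289 and 0.0317 by limma). No member passed without both 1 week pools in which pancreas genes were high. There the slopes were 0.28 for Slc7a6, 0.20 for Slc25a10 and 0.29 for Slc1a3, with adjusted p-values of 0.0713, 0.113 and 0.0996 by limma.

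Family 25, the mitochondrial carrier family, mostly had rising slopes. Of its 23 members, Slc25a17 of peroxisomes included, 19 had a rising slope, with 3 called and 12 at an unadjusted p under 0.05, and none with a falling slope at either threshold. Of all probe sets 5.71% were called rising and 3.69% falling, and 14.3% rose and 15.9% fell at an unadjusted p under 0.05. The median slope of the family was 0.096, beside 0.0043 over all members and −0.011 over all probe sets, of which 45.4% had a rising slope. Without Slc25a17, 18 of 22 had a rising slope, 11 at an unadjusted p under 0.05, with a median of 0.080. The 8 adipocyte markers had a median slope of 0.091 but did not all rise. Acvr1c (0.32, adjusted p = 0.0231 by limma) and Cfd (0.10, 0.0388) were called rising and none was called falling. Lep had a slope of −0.21 (0.0796) and Plin1 was flat at 0.0013 (0.993). The brown adipocyte marker Cidea rose by 0.30 (0.00553). The part of these markers in the slopes of the carriers was not tested. Rising slopes that did not pass the adjusted test belonged to Slc25a33, a pyrimidine nucleotide carrier (slope 0.18, adjusted p = 0.059 by limma), Slc25a11, the oxoglutarate carrier (0.15, 0.059), Slc25a17, a peroxisomal carrier of coenzyme A and related cofactors (0.13, 0.064), Slc25a39 (0.10, 0.063) and Slc25a3, the phosphate carrier (0.096, 0.067). Apart from Slc25a11 and Slc25a17, these were named after their values were seen, as were Slc35a4, Slc35b1 and Slc35b2 below. The ADP/ATP carriers were nearly flat, at 0.057 for Slc25a5 and 0.031 for Slc25a4, as was the citrate carrier Slc25a1 at 0.055, which exports citrate for fatty acid synthesis. The lowest slope was that of Slc25a12, an aspartate/glutamate carrier, at −0.15 (adjusted p = 0.281). It was 0.015 with the lymphocyte level as a covariate. The class median stayed between 0.067 (without both control pools) and 0.12 (chips centred on their medians) under the alternatives listed at the end, and at 0.077 with the lymphocyte level.

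The SLC35 family, whose better-known members carry nucleotide sugars, ran the other way. Of its 12 members, 3 had a rising slope, none was called, 6 had a falling slope at an unadjusted p under 0.05 and the median slope was −0.11. Of all probe sets 45.4% had a rising slope, and 15.9% had a falling slope at that unadjusted threshold. Slc35a4 had signals of 104.2, 95.2, 79.4, 76.8 and 70.4 at 1 week and of 98.1, 88.6, 80.1, 78.7 and 82.3 at 1 month, below the control in every restricted pool. The first chips of 1 week showed no such fall, at 69.5 in the control and 65.4 to 81.5 in the restricted pools. The second chips read 156.2 in the control and 70 to 111.1 in the restricted pools. The slope of Slc35a4 was −0.13 ± 0.040 (n = 10 pools, adjusted p = 0.063 by limma). Slc35b2, which carries the sulfate donor PAPS, had a slope of −0.17 (adjusted p = 0.065) and Slc35b1 one of −0.098 (0.086), while another probe set of Slc35b1 gave 0.012 (0.929). The lowest slope was that of the GDP-fucose transporter Slc35c1, at −0.21 (0.080), described further below. Slc35a1, the CMP-sialic acid transporter, had the largest rising slope of the family at 0.072 (0.22), with 0.036 and −0.0029 from its other probe sets.

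**Figure D3:**
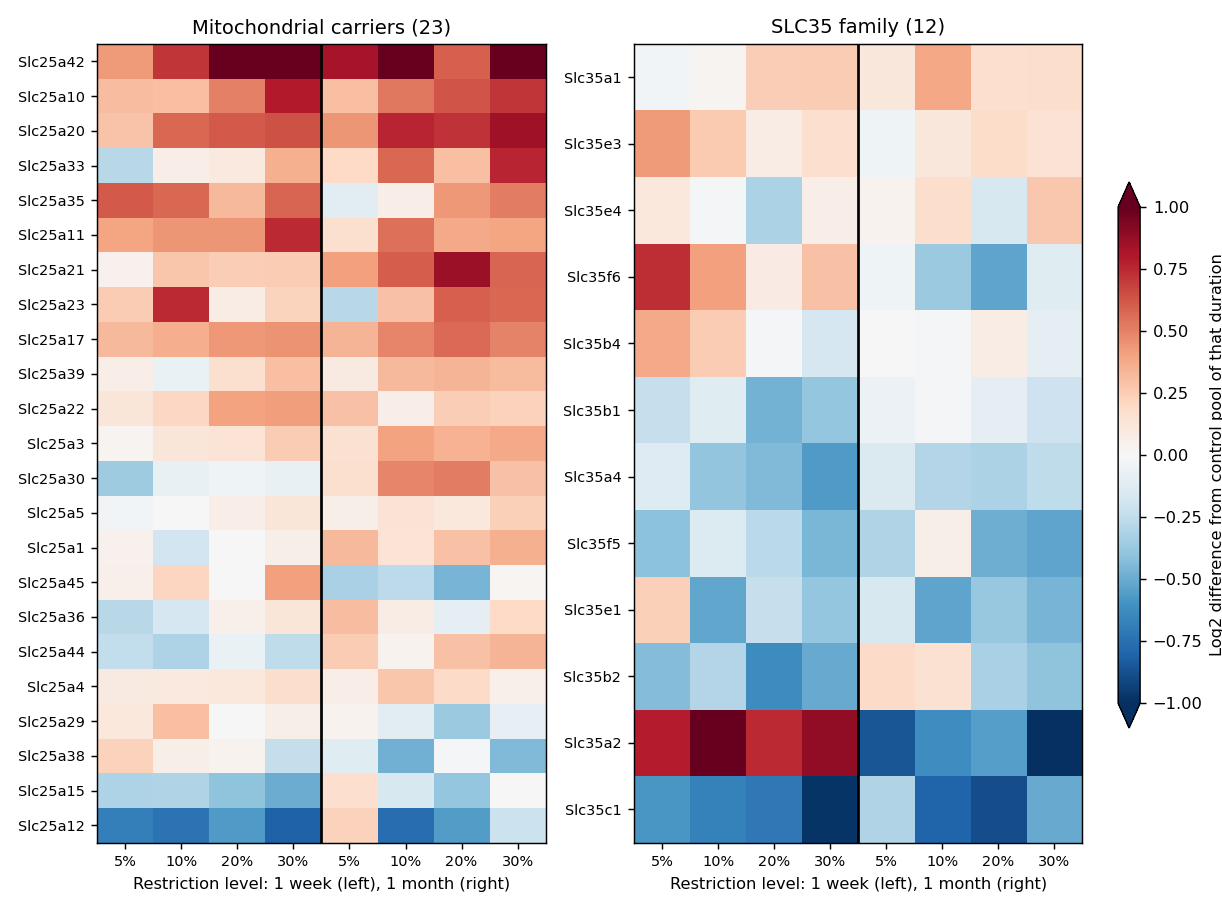
Log2 difference of each restricted pool from the control pool of its duration for the 23 members of family 25 (left) and the 12 members of the SLC35 family (right), ordered by dose slope, with 1 week left and 1 month right of the line; the colour scale ends at −1 and 1. Slc25a42 is red in all 8 pools and Slc35c1 blue in all 8, while Slc35a2 changes colour between durations.

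Amino acid and peptide transporters included both the steepest rising and the steepest falling members. Of 21 members, 13 had a rising slope, 2 were called and the median was 0.030. Of all probe sets 45.4% had a rising slope and 5.71% were called rising. Slc7a8, the LAT2 light subunit for neutral amino acids, had the largest slope at 0.34 ± 0.14 (adjusted p = 0.130 by limma), with signals of 22.2 in the control pool and 56.4 to 80.9 in the restricted pools at 1 week. At 1 month the 5% pool was at 22.5, below the control at 52.2, and the other restricted pools were at 54.5 to 61.9. Slc3a2, the heavy subunit shared by Slc7a6 and Slc7a8, had a slope of 0.084 (adjusted p = 0.266) and stood above its control in 5 of 8 restricted pools. Slc6a8, the creatine transporter, was above its control in 8 of 8 with a slope of 0.13 (0.221). Slc38a2, a sodium-coupled neutral amino acid transporter regulated by amino acid supply, had a slope of 0.060 (0.224), and the glutamine transporter Slc1a5 one of −0.12 (0.0511). Slc7a10, a transporter of serine and other small neutral amino acids enriched in white adipocytes, had a slope of −0.027 (0.838), and Slc7a1, a cationic amino acid transporter, one of −0.23 (0.152).

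The largest falling slopes among these did not pass the test and followed the lymphocyte markers in part. Slc38a1, a glutamine transporter, had signals of 52.1, 31.2, 27.98, 33.6 and 21.1 at 1 week and of 60.7, 57.5, 17.2, 18.4 and 25.2 at 1 month. Slc15a3, a lysosomal peptide and histidine transporter, had signals of 37.1, 25.7, 28.7, 20.4 and 15.3 and of 52.4, 45.2, 14.9, 15.7 and 25.9. Both genes lay below the filter limit at 30% for 1 week and at 10% and 20% for 1 month, and Slc15a3 also at 20% for 1 week. As for the lymphocyte markers, the 30% pool was lowest at 1 week and the 10% and 20% pools were lowest at 1 month. Other pools matched less. At 30% for 1 month the lymphocyte mean had regained most of its fall (6.82, control 7.80), and both genes less of theirs. From 10% to 20% for 1 week the lymphocyte mean rose (6.03 to 6.33), as did Slc38a1, while Slc15a3 fell. The slopes were −0.39 for both genes (adjusted p = 0.0904 and 0.0894 by limma), and they were −0.12 (0.675) and −0.11 (0.682) with the lymphocyte level as a covariate. With an offset of 16 added to each signal they were −0.268 for Slc38a1 and −0.244 for Slc15a3. Another probe set of Slc38a1 gave −0.23 (0.351). Slc23a2, an ascorbate transporter, behaved alike with a slope of −0.35 (0.0987) and −0.080 (0.738) with the covariate. Some members of this group are also known from lymphocytes and macrophages. The lymphocyte level itself went with restriction, so the fit with it as a covariate cannot separate them. The part of those cells in the falls was not tested.

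Sugar transporters numbered 10, of which 7 had a rising slope (beside 45.4% of all probe sets) and none was called, with a median of 0.048. Slc2a1, the GLUT1 glucose transporter, had a slope of −0.16 (adjusted p = 0.263 by limma) and Slc2a3, GLUT3, one of 0.044 (0.670). Slc37a4, which moves glucose 6-phosphate into the endoplasmic reticulum, had 0.052 (0.311), and Slc5a6, the sodium-dependent transporter of biotin and pantothenate, 0.14 (0.0853) with all 8 restricted pools above their control. The largest slopes were 0.17 for Slc45a4 (0.349) and −0.25 for Slc37a1 (0.176). Of the 6 carboxylate, fatty acid and bile acid transporters only Slc16a7 had a rising slope. Slc16a1, the lactate transporter MCT1, had a slope of −0.065 (0.267), the fatty acid transport proteins Slc27a3 and Slc27a4 had −0.19 (0.183) and −0.072 (0.424), and Slc16a6 had −0.27 (0.107).

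Of 16 inorganic ion transporters 8 had a rising slope and 2 were called, and of 23 metal transporters 6 had a rising slope and none was called. The shares over all probe sets were 45.4% with a rising slope and 5.71% called rising. Beside Slc4a4 and Slc24a3, Slc12a4, a potassium-chloride cotransporter, had a slope of 0.21 (adjusted p = 0.0716 by limma), the phosphate transporter Slc20a1 −0.19 (0.0599), the sodium/calcium exchanger Slc8a1 −0.19 (0.204) and the sodium-potassium-chloride cotransporter Slc12a2 0.016 (0.855). Slc20a1 stood below its control in 8 of 8 restricted pools, and its slope was −0.079 (0.468) with the lymphocyte level as a covariate. Among metal transporters the largest slopes were 0.18 for the zinc and manganese importer Slc39a8 (0.116) and −0.23 for the zinc exporter Slc30a1 (0.103). The iron exporter Slc40a1, ferroportin, had −0.087 (0.286) and the zinc and iron importer Slc39a14 −0.14 (0.287). At 1 month Slc39a14 had a signal of 70.9 in the control pool and 32.3 to 38.1 in the restricted pools, a step that a slope describes poorly. At 1 week it was at 44.3 in the control pool and 32.4 to 42.4 in the restricted pools. Of the 8 zinc importers of family 39, 7 had a falling slope, and of the 7 zinc exporters of family 30, 6 had one. The equilibrative nucleoside transporter Slc29a1 was flat at −0.045 (0.561). Of the 11 vitamin, choline, organic ion and other transporters 5 had a rising slope, the largest in Slc22a18, an organic cation transporter-like protein, at 0.18 (0.0657).

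The second comparison set the 8 restricted against the 2 control pools, which picks up changes that do not grow with the level. It gave 10 members higher (7.94%, beside 4.34% of all probe sets) and 1 lower (0.794%, beside 1.6%). Slc1a3, Slc25a10, Slc25a20 and Slc25a42 were also called for the slope, and Slc6a6, Slc12a4, Slc11a2, Slc22a18, Slc25a11, Slc25a17 and Slc35c1 were not. Both comparisons use the same 2 control pools, so they are not independent of each other.

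Slc6a6, the taurine transporter, had the largest difference among the called members. Its signal was 78.0 in the control pool of 1 week and 170.6, 197.9, 215.1 and 204.3 at 5%, 10%, 20% and 30%. At 1 month it was 98.7 in the control pool and 130.8, 151.9, 157.7 and 124.5 in the restricted pools. All restricted pools stood above both controls, and the 5% pool of 1 week was already 2.19-fold above its control. The difference was 0.92 ± 0.17 log2 (SE, n = 10 pools, adjusted p = 0.0157 by limma), and a further probe set gave 0.79 (adjusted p = 0.0244). Without the control pool of 1 week it was 0.51.

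Slc11a2, the proton-coupled iron transporter DMT1, had signals of 117.8, 157.1, 153.8, 168.3 and 197.8 at 1 week and of 131.9, 188.6, 210.5, 200 and 175.3 at 1 month, with the groups apart. Its difference was 0.53 ± 0.11 (n = 10 pools, adjusted p = 0.0213 by limma), but the other probe set of the gene gave 0.010 (adjusted p = 0.968). The peroxisomal carrier Slc25a17 had controls of 206.5 and 206.1 and restricted pools of 258.2 to 306.0, a difference of 0.43 ± 0.083 (adjusted p = 0.0188). Slc25a11, the oxoglutarate carrier of the malate-aspartate shuttle, had controls of 202.4 and 244.5 and restricted pools of 265.8 to 357.5, a difference of 0.44 ± 0.12 (adjusted p = 0.0490).

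Slc12a4 had controls of 24.4 and 29.9 and restricted pools of 30.8 to 47.3, with a difference of 0.61 ± 0.16 (n = 10 pools, adjusted p = 0.0496 by limma). Its signals were close to the filter limit. Slc22a18 had controls of 91.8 and 102.9 and restricted pools of 115.5 to 175.5, with a difference of 0.53 ± 0.14 (adjusted p = 0.0483). Slc25a42 differed by 0.84 ± 0.17 (0.0205), Slc1a3 by 0.81 ± 0.18 (0.0309), Slc25a20 by 0.61 ± 0.12 (0.0205) and Slc25a10 by 0.51 ± 0.13 (0.0483).

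Slc35c1, which supplies the Golgi apparatus with GDP-fucose, was the member that was lower. Its signal was 83.1 in the control pool of 1 week and 55.4, 52.1, 50.7 and 42.2 in the restricted pools. At 1 month it was 69.1 in the control pool and 56.2, 39.7, 37.3 and 48.7 in the restricted pools. The groups did not overlap, and the difference was −0.68 ± 0.16 (n = 10 pools, adjusted p = 0.0360 by limma). It was −0.40 (adjusted p = 0.225) with the lymphocyte level as a covariate.

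**Figure D4:**
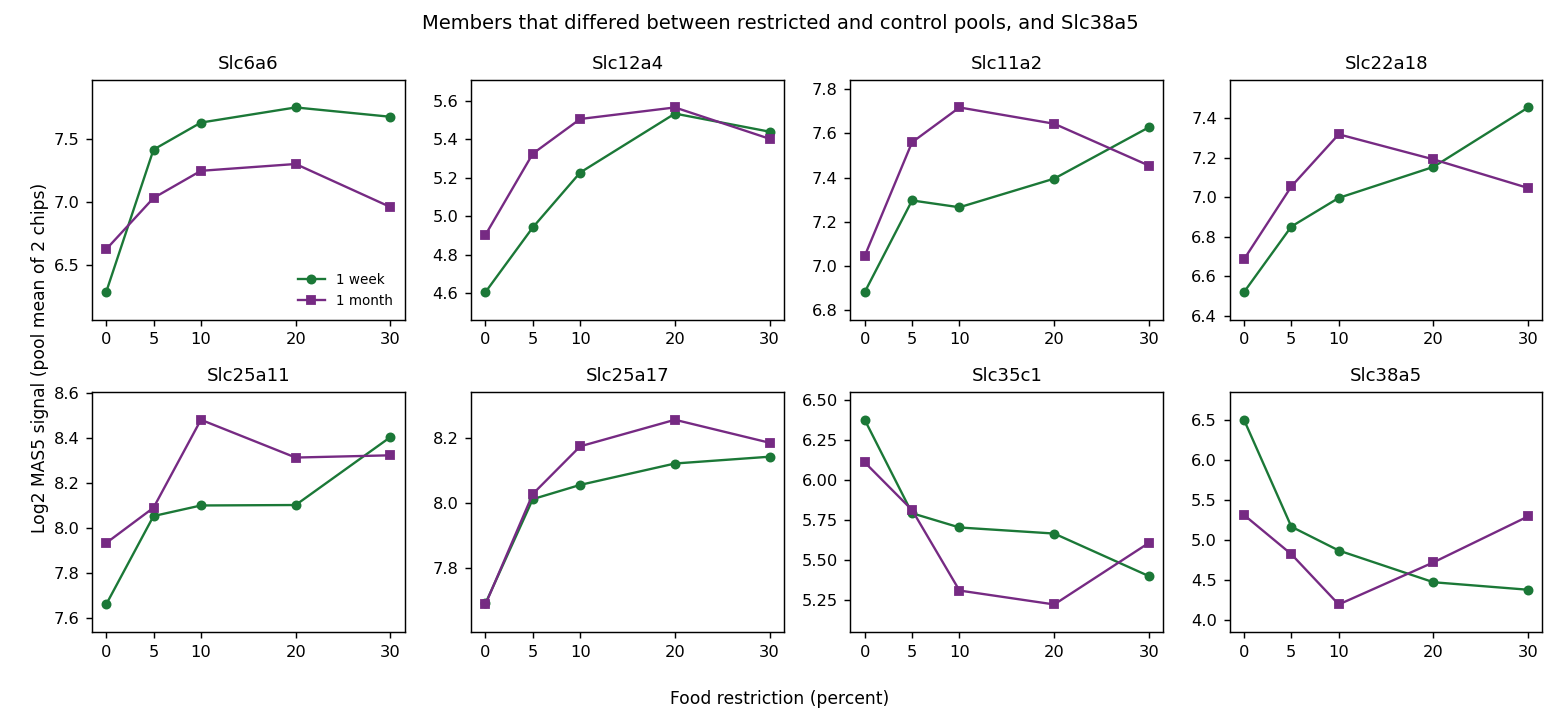
Log2 MAS5 signal (mean of 2 chips) against food restriction in percent for the 7 members that differed between restricted and control pools without a called slope, and for Slc38a5, which did not pass (adjusted p = 0.0555); 1 pool per point, lines for 1 week (circles) and 1 month (squares), each panel with its own vertical range. Slc6a6 is higher and Slc35c1 lower than control in all 8 restricted pools.

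Asked of every chip pair, 101 probe sets (1.06%) were higher in all 8 restricted pools with 4 of 4 chip differences each, and 126 (1.32%) were lower. Among the members Slc6a6 and Slc25a42 were higher and Slc35c1 was lower by this count, 1.59% and 0.794% of the 126. The first and second chips of 1 week differed in their general signal level, so the count asks for larger changes at 1 week. Slc1a3 missed it at 5% for 1 week, where its first chip read 420.4 and the second control chip 478.9.

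Without single pools the count of members higher under restriction moved as well, to 0 without the 1 week control, 1 without the control pool of 1 month, 5 or 6 without the 10% or 20% pool of 1 week or the 10% or 20% pool of 1 month, and 20 without the 5% pool of 1 month, where 10.7% of all probe sets were higher and 10.1% lower. The count of lower members was 10 without the 5% pool of 1 month, 2 without the 5% pool of 1 week or the 30% pool of 1 month, and 0 without each of the 7 others. With the lymphocyte level as a covariate no member passed, and Slc6a6 differed by 0.78 (adjusted p = 0.0827 by limma).

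Taken alone, neither duration gave a called slope for any member by limma. At 1 week 19 members had a rising and 12 a falling slope at an unadjusted p under 0.05 (15.1% and 9.52%, beside 10.5% and 9.61% of all probe sets), and 0.294% of all probe sets passed the adjusted test. At 1 month 15 had a rising and 6 a falling slope (11.9% and 4.76%, beside 6.69% and 6.5%), and 0.126% of all probe sets passed. The difference between the durations was not called for any member, nor for any probe set (0%). At an unadjusted p under 0.05 it was positive for 1 member and negative for 2 (0.794% and 1.59%, beside 1.31% and 1.65% of all probe sets). Across the 126 members the slopes of the durations, which come from separate pools, correlated with Pearson's r of 0.629 and Spearman's rho of 0.701, and 100 members (79.4%) had one sign, beside 72.3% of all probe sets. Genes are not independent replicates, so these are descriptions. In family 25, 22 of 23 had one sign at both durations.

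Slc38a5, a sodium-coupled transporter of glutamine and other neutral amino acids, was among the 3 with a difference at an unadjusted p under 0.05. Its signal was 90.6 in the control pool of 1 week and 35.9, 29.2, 22.1 and 20.8 in the restricted pools, and at 1 month 39.7 in the control pool and 28.3, 18.3, 26.3 and 39.2 in the restricted pools. The slope was −0.60 ± 0.18 at 1 week and 0.049 ± 0.18 at 1 month, a difference of 0.65 (adjusted p = 0.999 by limma). The high control pool of 1 week is the one in which the pancreas markers stood at 12.4, and without it and the 30% pool of 1 week the slope over both durations was −0.035 in place of −0.28.

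In single restricted pools, a member counted as changed when all 4 chip differences from the control of its duration had one sign and the difference was at least 1.5-fold, with no p-value. At 1 week 9, 14, 19 and 29 members changed at 5%, 10%, 20% and 30% (7.14%, 11.1%, 15.1% and 23% of the 126), beside 6.91%, 12%, 13.6% and 18.3% of all probe sets. At 1 month 8, 27, 30 and 20 members changed (6.35%, 21.4%, 23.8% and 15.9%), beside 5.67%, 19.6%, 16.3% and 13.2%. The number grew with the level at 1 week and was largest at 20% at 1 month, where the share over all probe sets was largest at 10%. The order of 10% and 20% at 1 month depended on processing. It was 35 and 34 members with chips centred on their medians and 29 and 28 by quantile normalization. With an offset of 16 it was 19 and 19, and from same-numbered chips 28 and 31. Because the first and second chips of 1 week differed in their general signal level, the count was repeated with same-numbered chips, 2 of 2 differences. It gave 17, 22, 26 and 38 members from 5% to 30% of 1 week, beside 8.96%, 14.5%, 15.8% and 21.1% of all probe sets.

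The members with the largest changes at 1 week were Slc7a8, at 2.54, 3.27, 3.65 and 3.25 times its control from 5% to 30%, Slc6a6, and Slc45a4, a proton-coupled sugar transporter, at 2.95 times in the 5% pool. The control pool of Slc7a8 was at 22.2, just below the filter limit, so its folds at 1 week rest on a low denominator. The control chips of Slc45a4 read 4.3 and 26.5, the first far below the filter limit, and it did not meet the rule at 10%, 20% or 30%. Slc38a5 was lowest in each pool, at 0.396, 0.322, 0.244 and 0.229 of its control, and Slc7a1 stood at 0.444 in the 20% pool. At 1 month Slc25a42 was highest in the 5%, 10% and 30% pools, at 1.77, 2.05 and 2.08 times its control, and Slc25a21, a carrier of oxodicarboxylates, in the 20% pool, at 1.82 times. Slc38a1 stood at 0.284, 0.303 and 0.415 of its control at 10%, 20% and 30%, and Slc35a2, the UDP-galactose transporter, at 0.231 at 30%. In the 5% pool of 1 month the lowest were Slc7a9, a light subunit for cystine and cationic amino acids, at 0.173, and Slc7a8, at 0.432. The Slc7a9 signal was 4.67 there, far below the filter limit, and the Slc7a8 signal was 22.5, just below it. Pool signals also lay below this limit for Slc38a5 at 20% and 30% and for Slc7a1 at 20% for 1 week. At 1 month they did so for Slc38a1 at 10% and 20% and for Slc35a2 at 30%. These folds are descriptions of single pools.

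**Figure D5:**
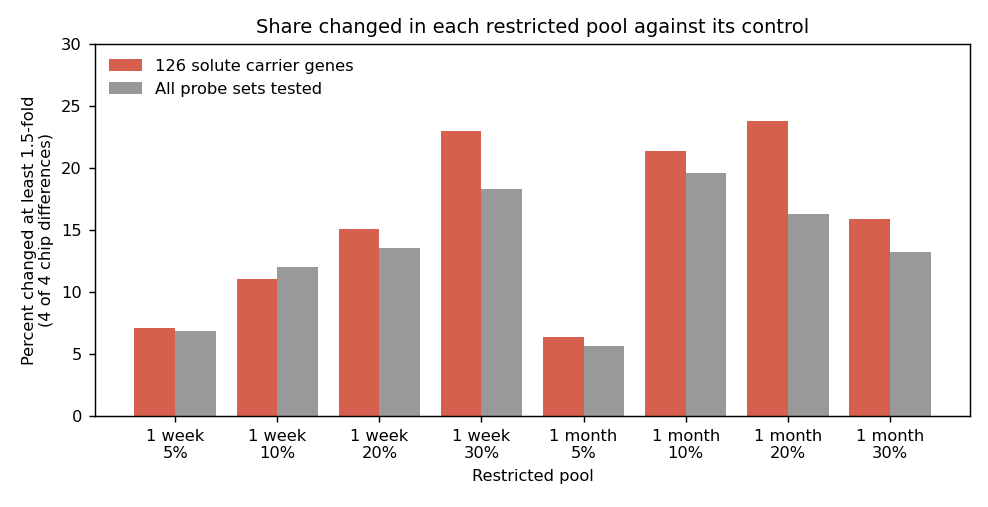
Share of the 126 members (red) and of all 9520 probe sets tested (grey) that changed at least 1.5-fold with 4 of 4 chip differences of one sign, in percent, for each restricted pool against the control pool of its duration. The members range from 6.35% (5% for 1 month) to 23.8% (20% for 1 month) and the probe sets from 5.67% to 19.6%.

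The third comparison set 1 month against 1 week at matched levels. It gave 4 members higher (3.17%, beside 3.21% of all probe sets) and 1 lower (0.794%, beside 1.55%). Slc25a4, the main ADP/ATP carrier of muscle and heart type, had signals of 843.8 to 954.9 at 1 week and 1097 to 1331 at 1 month, without overlap, and a difference of 0.40 ± 0.063 log2 (n = 10 pools, adjusted p = 0.0164 by limma). Slc16a7 was higher by 0.48 ± 0.095 (0.0333), Slc7a6 by 0.35 ± 0.083 (0.0478) and Slc50a1, a sugar transporter, by 0.30 ± 0.068 (0.0432). Slc25a44, a mitochondrial carrier of branched-chain amino acids, had signals of 77.9 to 96.4 at 1 week and 51.8 to 65.6 at 1 month, a difference of −0.54 ± 0.10 (0.0303). The chips of the durations differed in their general signal level and the rats differed in age, and the median difference over all probe sets was 0.068. With each chip centred on its median no member was called higher, and the differences were 0.36 for Slc25a4 (0.051), 0.44 for Slc16a7 (0.056), 0.31 for Slc7a6 (0.12) and 0.26 for Slc50a1 (0.12), while Slc25a44 stayed at −0.58 (0.031). Leaving out 1 pool left 0 higher, except 1 without the 5% pool of 1 month and 2 without either 30% pool, and 0 lower except without either 30% pool.

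Other transport genes gave a frame for these counts. Of 19 tested relatives of solute carriers that bear other names, 2 rose and none fell with restriction: Mpc1, a subunit of the mitochondrial pyruvate carrier (0.16 ± 0.030, adjusted p = 0.0126 by limma), and Sfxn1, a mitochondrial serine carrier (0.28 ± 0.036, 0.00277). Of 19 ion pump genes none rose and 2 fell, the sodium pump subunits Atp1b3 (−0.10, 0.0279) and Fxyd2 (−0.17, 0.0370). None of 11 ABC transporters was called for the slope. Of 11 water, anion and glycerol channels Vdac1, a channel of the outer mitochondrial membrane, rose (0.15, 0.0429) and Clic1 fell (−0.18, 0.0379). Of 8 partner proteins Txnip, an arrestin that lowers glucose transporters at the cell surface, rose (0.19, 0.0150). The median slopes of these lists were 0.014, 0.0028, 0.00055, 0.062 and 0.055 in this order, beside −0.011 over all probe sets. Over all probe sets 5.71% were called rising and 3.69% falling. Counts this small, in lists of 8 to 19 genes, cannot be set apart from those shares.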

How the data were processed

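The study measured pooled RNA of visceral white adipose tissue on 20 chips, 2 for each of 10 pools. The intensity values were deposited as linear signals that the authors computed with MAS5. How the chips were scaled was not stated in the sources used. The trimmed mean signal was near 77.2 in the first and 110.9 in the second chips of 1 week, and 97.4 to 97.7 in the chips of 1 month. Differences between durations therefore depend on scale. Signals under 1 were set to 1 and log2 values taken. Of 15923 probe sets, 57 array controls were left out, and the 9520 whose mean signal reached 22.8, the 40th percentile on the log2 scale, were tested. Each gene was read from its probe set of highest mean signal, named from the platform annotation.

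Chips were averaged to pools. Models were fitted in limma 3.58.1 (R 4.3.3, intensity trend) over all 9520 probe sets and p-values adjusted by Benjamini-Hochberg over all of them, with a threshold of 0.05: a slope per 10% of restriction with duration as a term, slopes by duration, restricted against control pools, and 1 month against 1 week with the level as a factor. The code was tested on simulated data. Across probe sets, the deviations of same-numbered chips from their pool means correlated weakly between pools (median r = 0.088, range −0.087 to 0.225). They were not treated as pairs. This correlation cannot see a shift shared by whole chips, and at 1 week the number also marks such a shift, with trimmed mean signals near 77.2 and 110.9. Named were all members called for the slope or for restriction, up to 6 per direction in other tests, the extreme slopes of each class, the 2 largest rises and falls per pool, and members with known roles in fat. Members, classes and lists were chosen with earlier results of these data known. Promoter windows came from RefSeq (GRCr8). Alternatives were other scalings, offsets, filters, probe set rules and chips, a random block for the pool, a lymphocyte covariate, and fits without single pools, without the control and 30% pools of 1 week or without both controls.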

Additional observations from a re-analysis of the deposited data

Results flagged for a closer look

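Members stood out where every restricted pool of 1 week lay on one side of its control and every restricted pool of 1 month on the other. Slc25a44, the mitochondrial carrier of branched-chain amino acids, had a mean log2 difference from control of −0.219 at 1 week and of 0.23 at 1 month. Slc35a2, the UDP-galactose transporter, had 0.913 at 1 week and −1.03 at 1 month, with signals of 15.2 in the control pool and 25.5 to 35.8 in the restricted pools at 1 week, and of 47.58 and 10.98 to 32.53 at 1 month. Its 1 week control chips read 5.9 and 39.1, the first far below the filter limit, and none of the 4 restricted pools of 1 week had 4 of 4 chip differences of one sign. Its slopes were 0.18 ± 0.17 and −0.54 ± 0.17, and the difference of −0.71 did not pass limma's test (adjusted p = 0.999). In all, 7 of 126 members (5.56%) lay on opposite sides in this way, beside 3.92% of all probe sets. The other 5, untested as mean differences, were Slc2a8 (−0.123 and 0.233), Slc6a9 (0.592 and −0.191), Slc25a30 (−0.135 and 0.362), Slc35f6 (0.381 and −0.265) and Slc41a1 (−0.423 and 0.351).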

How the results depend on the processing

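With 1 pool per group, rats of a group cannot be compared, and single pools decided many calls. For the slope over both durations, 8 members rose and 1 fell. The replicate block, a fit of 20 chips with the pool as a random block, gave 18 and 8 (9.4% and 8.76% of all probe sets, against 5.71% and 3.69%). The fit without the control and 30% pools of 1 week gave 0 and 0, without both control pools 1 and 0, and with the lymphocyte covariate 3 and 0, where 0.116%, 0.242% and 1.06% of all probe sets rose. The falling count was also 2 by quantile normalization or without replicate 1, 5 with a 60th percentile filter, and 0 with no filter, with the mean of a gene's probe sets or with no intensity trend. Leaving out 1 pool gave 3 to 18 rising and 0 to 13 falling members. At 1 week, 0 members were called, against 1 by quantile normalization, 1 with the 60th percentile filter, 7 with the replicate block and 0 to 4 leaving out a pool. At 1 month the counts were 0, against 3 with the block and 0 to 1 leaving out a pool. The difference of these slopes called 0 members by limma in all 23 alternatives (3 at an unadjusted p under 0.05 as reported).

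Between restricted and control pools 10 members were higher and 1 lower. These became 20 and 9 with the replicate block (9.6% and 8.2% of all probe sets), 0 and 0 without the control and 30% pools of 1 week, 0 and 0 with the lymphocyte covariate, and 6 and 0 with no filter. The higher count was 6 with no intensity trend, and the lower count 2 by quantile normalization, 2 with an offset of 16 and 0 with the 60th percentile filter. Leaving out 1 pool gave 0 to 20 and 0 to 10. Between durations 4 were higher and 1 lower, against 10 and 7 with the block (10.6% and 3.31% of all probe sets), 1 and 5 by quantile normalization, 7 and 2 with the 60th percentile filter, 0 and 0 with no trend, and 1 and 0 without the control and 30% pools of 1 week. The higher count was 0 with chips centred on their medians and 1 with no filter, and the lower count 3 with the lymphocyte covariate. Leaving out 1 pool gave 0 to 2 and 0 to 1. Without replicate 2 of every pool they were 37 and 0, with 44.6% of all probe sets higher, and without replicate 1 of every pool 0 and 28, with 15.8% lower.

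In single pools, the 9 members changed at 5% for 1 week became 18 with median centring, 18 by quantile normalization, 5 with an offset of 16 and 17 from same-numbered chips, an alternative chosen after seeing the data. The 14 at 10% became 25 by quantile normalization, 8 with the offset and 22 from same-numbered chips. With the offset the counts were 11 at 20% for 1 week, 5 at 5% for 1 month and 19 at 20% for 1 month.

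Slopes of 56 members were recomputed 1266 times in all: 1135 kept direction and side of the threshold, 70 lost and 45 gained the threshold, and 16 reversed. From one chip per pool, without replicate 1 and without replicate 2 in turn, the slopes were 0.08731 and −0.05491 for Slc12a2, 0.01278 and −0.1022 for Slc29a1, −0.3852 and 0.02677 for Slc35a2, and 0.01882 and −0.07238 for Slc7a10. With the lymphocyte covariate Slc12a2 had −0.03516, Slc25a12 0.01528, Slc25a4 −0.01799, Slc27a4 0.007745 and Slc29a1 0.00977. Without both control pools Slc12a2 had −0.01982 and Slc27a4 0.008709, and without the control and 30% pools of 1 week Slc27a4 had 0.017. Leaving out 1 pool, Slc12a2 ranged down to −0.01864 and −0.003296, Slc35a2 up to 0.08234 and Slc7a10 up to 0.0351. The median slope of the metal transporters was 0.002663 by quantile normalization. The causes were not tested.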

Other observations

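Family 22, the organic ion and carnitine transporters, had rising slopes in all 4 of its members, with a median of 0.139 log2 per 10% of restriction, and 2 of them had an unadjusted p under 0.05 by limma. Of all probe sets 45.4% had a rising slope, and 14.3% had one at that unadjusted threshold. None of the 4 members passed the adjusted test. In family 38, the sodium-coupled neutral amino acid transporters, 1 of 4 members had a rising slope and the median was −0.193.

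Slc6a8 was not called for restriction by its brightest probe set, at 0.47 log2 (adjusted p = 0.0854 by limma), while its other probe set gave 0.66 (adjusted p = 0.0199).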
